A study of Mus musculus with 4 samples.

Results

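The cells described here are 12572 leukocytes from the hindpaws of 21-week-old mice, sorted by lineage with 5 expression gates, and the question is which genes differed alike between diabetic and wild-type mice in all 5 lineages and which differed in 1 lineage only. They came from 2 of the 4 libraries of the study, 21-week-DB (6817 gated cells) and 21-week-WT (5755 gated cells), out of 27800 cells that passed the same quality limits in the whole series. DB mice were male Lepr db/db mice on the C57BLKS/J background, in which both copies of the leptin receptor gene carry the db allele in every cell of the body, and WT mice were male Lepr WT/WT littermates. Each library held CD45+ cells of both hindpaws from 2 to 3 pooled mice, released by up to 2 hours of collagenase, so age, sex, strain, tissue and digestion were shared by both libraries. With 1 library a group there is no replicate check: no p-value can be given, and every interval below is an exact 95% interval that covers counting error only.

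The leptin receptor is the receiver of leptin, the hormone by which fat tissue reports its stores, and mice without a working one overeat, become obese and develop insulin resistance and high blood glucose. They also have raised circulating glucocorticoid, a steroid hormone that leukocytes of every kind can sense through a nuclear receptor. Hormones and metabolites in the blood can reach every leukocyte of a tissue. Skin and paw tissue holds macrophages, which clear debris, dendritic cells, which present antigen, T cells, type 2 innate lymphoid cells (ILC2), which make type 2 cytokines without an antigen receptor, and mast cells, which store histamine and proteases in granules.

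Cells with at least 200 genes and at most 10% of unique molecular identifiers (UMIs, the counted mRNA molecules) from mitochondrial genes were kept, 7270 of 8208 barcodes in WT and 8707 of 9124 in DB. The macrophage gate took cells with 10 or more UMIs of C1qa, C1qb and C1qc together, and held 1589 WT and 1436 DB cells. The dendritic gate took cells with 10 or more UMIs of H2-Aa, fewer than 5 of the C1q genes and none of Cd79a, and held 1719 WT and 355 DB cells. The T gate took cells with a UMI of Cd3e and fewer than 5 of the C1q genes, and held 1717 WT and 2261 DB cells. The ILC2 gate took cells with 2 or more UMIs of Gata3, none of Cd3e and fewer than 5 of the C1q genes, and held 677 WT and 1601 DB cells. The mast gate took cells in which Cpa3, Cma1, Mcpt4 and Tpsb2 made up at least 1% of UMIs, and held 228 WT and 1228 DB cells. These 11 genes were left out of all results.

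In each gate most of the markers of its own lineage were found in at least 25% of cells of both libraries (7 of 8 for macrophages, 7 of 11 for dendritic cells, 8 of 8 for T cells, 9 of 10 for ILC2 and 8 of 8 for mast cells). Macrophage markers stood in the dendritic gate as well, where 6 of 8 in WT and 7 of 8 in DB were found in at least 25% of cells and their summed level was 3321 CPM (WT) against 6004 CPM (DB). Of the 10 ILC2 markers 2, 3, 6 and 4 were found so in the WT macrophage, dendritic, T and mast gates. In the same DB gates 3, 5, 7 and 5 were. The ILC2 gate goes against its label for a minority of cells, since 37.4% of its WT cells and 30.5% of its DB cells held a UMI of the T cell receptor genes Cd3d, Cd3g, Trac or Trdc. Of its cells 16.2% and 11.9% held 3 or more. The gates overlapped in 175 WT and 64 DB cells. In the dendritic gate 150 of 1719 WT cells and 62 of 355 DB cells were marked as doublets (barcodes holding several cells) by a simulated-doublet score. They stay in the main values. Summed UMIs per gate ran from 566504 in WT mast cells to 23109577 in WT dendritic cells, and from 2161569 to 14898444 in DB, so the WT mast gate sets the widest intervals. The median kept cell held 8000.5 UMIs in WT and 5355 in DB. The libraries shared 154 cell barcodes, against 6 to 41 for the other pairs of libraries, and 146 of them were kept in both; only 11 were gated in both, and leaving all shared barcodes out gave the same counts past 2-fold in all 5 lineages. Lepr itself was at 8 UMIs or fewer in any gate, and since the db allele disturbs splicing, a 3′ count does not check the genotype.

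A level is given as CPM, the UMIs of a gene scaled to the UMIs of all cells of the gate in that library (counts per 1e6), and a difference as the log2 ratio of the DB level over the WT level. In these summed counts, fewer cells of a type within a gate and less RNA per cell cannot be told apart. A gene counted as measured in a lineage with at least 50 CPM and 20 UMIs in the library where it was higher, and as past 2-fold (or past 1.5-fold, a limit added after the data were seen) when its ratio reached that fold and its counting interval excluded no difference. A gene can so be measured through its higher library alone, which favours large ratios, also among genes measured in every lineage. Levels are listed in the order macrophage, dendritic, T, ILC2 and mast throughout.

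Few genes differed alike in every lineage. Of 1987 genes measured in all 5, 1 was higher in DB past 2-fold in all 5 (0.0503%) and 1 was lower (0.0503%), namely Snhg9 and the mitochondrial gene mt-Nd3. Past 1.5-fold the counts were 18 higher (0.906%) and 23 lower (1.16%), shown in the plot of log2 ratios by gate. Only 5 of the 18 (Snhg9, Snhg8, Ddx21, Hist1h2bc and Tsc22d3) and 6 of the 23 (mt-Nd3, mt-Cytb, mt-Nd2, Tapbp, Tpm3-rs7 and Dazap2) stayed past 1.5-fold in every gate under each alternative choice of cells, scaling or ambient RNA. The others lost it in some gate, as Mt1 did in ILC2 with at most 5% mitochondrial UMIs (0.58) and Fkbp5 in mast cells with the mean over cells (0.51). Within single lineages far more genes passed 2-fold. In macrophages 1.83% of 3330 measured genes were higher and 2.28% lower, and in dendritic cells 4.03% of 2974 were higher and 1.48% lower. In T cells 2.32% of 3269 were higher and 2.6% lower. In ILC2 2.04% of 3135 were higher and 3.57% lower, and in mast cells 3.66% of 3331 were higher and 3.72% lower. At 1.5-fold the corresponding shares were 7.78% and 7.09% in macrophages, 11.3% and 5.25% in dendritic cells, 9.82% and 8.96% in T cells, 8.71% and 13.8% in ILC2, and 10.4% and 12.4% in mast cells. Most genes past 2-fold passed in a single lineage: 259 were higher in 1 lineage, 51 in 2, 15 in 3, 8 in 4 and 1 in 5, and 206, 46, 22, 18 and 1 were lower. In any size, 485 genes (24.4% of the 1987) were higher in all 5 lineages and 451 (22.7%) were lower. The median log2 ratio of all measured genes lay between -0.07 in ILC2 and 0.07 in dendritic cells.

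**Figure D1:**
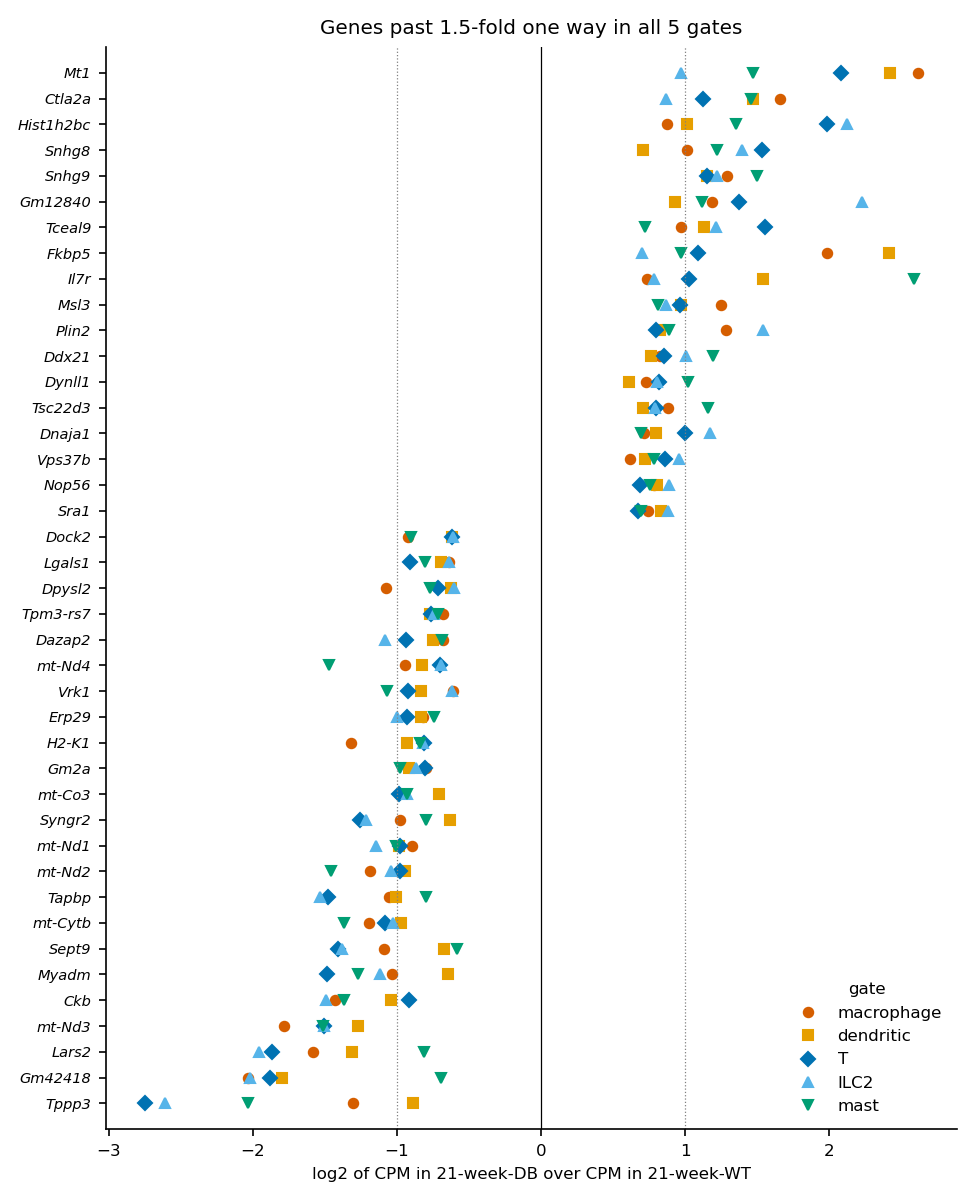
Log2 ratio of the level (CPM) in 21-week-DB over 21-week-WT for the 41 genes past 1.5-fold one way in all 5 gates, 1 row a gene, with 1 symbol for each gate and dotted lines at 2-fold. Mt1 and Fkbp5 among the higher genes and Tppp3 and Gm42418 among the lower ones spread widely over the gates, while the symbols of Snhg9, Sra1 and Tpm3-rs7 lie close together.

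The gene past 2-fold higher in all 5 gates was Snhg9. Its WT level was under 50 CPM in every gate, so it counted as measured through DB alone. With a minimum of 100 CPM no gene was higher past 2-fold in all 5. Snhg9 lies wholly inside the span of Rps2, a ribosomal protein gene on the opposite strand (GRCm38 chr17:24718116-24721929, plus strand). Whether Rps2 reads entered the Snhg9 count was not tested. Snhg9, a non-coding RNA whose introns hold small nucleolar RNAs (GRCm38 chr17:24719531-24719965, minus strand), was at 31.7, 37.4, 40.6, 40.2 and 38.8 CPM in the WT gates and at 77.7, 83.1, 90.5, 93.9 and 109.6 CPM in the DB gates. Its log2 ratios were 1.29, 1.15, 1.16, 1.22 and 1.50, with counting intervals from 1.15 to 1.44 in macrophages to 0.87 to 2.20 in mast cells, so that its level was nearly flat across WT lineages and was higher in DB in each of them by a similar fold. Snhg8, a host gene of the same kind, was at 151, 159, 231, 269 and 169 CPM in WT and at 306, 259.5, 668, 707 and 396 CPM in DB, with log2 ratios of 1.02, 0.71, 1.53, 1.39 and 1.22. Ddx21, a nucleolar RNA helicase, had log2 ratios of 0.82, 0.77, 0.86, 1.01 and 1.20, and Nop56, a core protein of small nucleolar ribonucleoprotein particles, of 0.78, 0.81, 0.68, 0.89 and 0.76. Nop56, unlike Snhg9, Snhg8 and Ddx21, was not past 1.5-fold in every gate under each alternative. Of 28 cytosolic ribosomal proteins, all measured in every gate, 14 were higher in all 5 lineages in any size and none was lower in all 5, but none passed 1.5-fold in all 5, and the medians were 0.33, 0.13, 0.46, 0.54 and 0.15 on the log2 scale. Single-lineage counts past 1.5-fold were 3, 0, 9, 13 and 2 higher and 0, 0, 0, 0 and 1 lower, so the ribosomal protein difference was largest in the T and ILC2 gates.

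Metallothioneins, small cysteine-rich proteins that bind zinc and copper and are induced by metals, oxidants and glucocorticoids, gave the largest median difference among the shared higher genes. Mt1 was at 337, 210.1, 74.2, 137 and 604 CPM in WT and at 2068, 1125, 314, 269 and 1677 CPM in DB, with log2 ratios of 2.62, 2.42, 2.08, 0.97 and 1.47. The fold was therefore largest in macrophages and dendritic cells, and in ILC2 it fell just short of 2-fold (counting interval 0.85 to 1.09). Mt2, the neighbouring gene with the same function, was at 58.9, 31.3, 19.7, 77.99 and 185 CPM in WT and at 455, 209, 64.4, 74.9 and 448 CPM in DB. It was past 2-fold in 4 lineages but not in ILC2, where its log2 ratio was -0.06 (-0.23 to 0.12). The metallothionein genes lie side by side on chromosome 8. Since both were past 2-fold higher in the same 4 lineages, the RefSeq promoter windows (GRCm38.p6, plus strand, 300 bases around the start) are shown here, with the letters TGCACNC or TGCGCNC of the metal response element in capitals, on either strand.
Mt1 (chr8:94178839-94179138): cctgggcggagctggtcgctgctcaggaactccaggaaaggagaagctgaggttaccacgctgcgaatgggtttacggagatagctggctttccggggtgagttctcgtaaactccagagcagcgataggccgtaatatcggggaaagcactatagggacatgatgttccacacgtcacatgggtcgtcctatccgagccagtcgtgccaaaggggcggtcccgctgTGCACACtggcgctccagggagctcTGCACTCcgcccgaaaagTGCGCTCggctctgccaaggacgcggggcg
Mt2 (chr8:94172368-94172667): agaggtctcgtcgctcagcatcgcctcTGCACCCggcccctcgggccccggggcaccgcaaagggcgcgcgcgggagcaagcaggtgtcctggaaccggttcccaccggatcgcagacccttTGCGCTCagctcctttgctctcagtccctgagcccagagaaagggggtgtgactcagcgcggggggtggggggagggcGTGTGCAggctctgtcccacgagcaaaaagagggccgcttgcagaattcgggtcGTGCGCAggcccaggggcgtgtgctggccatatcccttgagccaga
The Mt1 window holds 3 such matches and the Mt2 window 4, while 25.7% of all 32851 RefSeq promoter windows hold at least 1. The glucocorticoid response element occurs once in the Mt1 window, at positions 157 to 169 as GGACATGATGTTC, does not occur in the Mt2 window, and is found in 0.475% of all windows. Of the 18 shared higher genes 14 had a window, of which 7 held a metal response element match and 1, Mt1, the glucocorticoid one. Counted by gene in the same way, 28.2% and 0.537% of all 27025 genes with a window held them. Such matches are runs of letters and say nothing of binding.

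Of 10 glucocorticoid-responsive genes measured in all gates, 2 were past 1.5-fold higher in all 5, Tsc22d3 and Fkbp5, against 0.906% of all genes. This list and every other gene list here were chosen with earlier results of these data known. List counts beside the share of all genes are therefore a description and no test of the list. Tsc22d3 (GILZ), an anti-inflammatory gene switched on by the glucocorticoid receptor, was at 263, 147, 149, 159 and 436 CPM in WT and at 485, 239.5, 259, 276 and 974 CPM in DB, with log2 ratios of 0.88, 0.71, 0.80, 0.79 and 1.16. Fkbp5, a chaperone that tunes the same receptor and is one of its standard targets, was at 35.7, 19.4, 68.04, 83.4 and 30.01 CPM in WT and at 142, 103, 145, 136 and 58.8 CPM in DB, with log2 ratios of 1.99, 2.42, 1.09, 0.70 and 0.97. Tsc22d3 differed by a similar fold in all gates, whereas the Fkbp5 fold was largest in dendritic cells and macrophages. In any size 7 of the 10 were higher in all 5, against 24.4% of all genes, and 1, Klf4, was lower in all 5. Klf9, a transcription factor of the same response, had log2 ratios of 0.83, 1.53, 0.76, 0.46 and 0.22, and Cdkn1a, a cell cycle inhibitor, of 0.47, 0.55, 0.68, 0.86 and 0.78. Dusp1 and Per1, which the hormone also induces, did not follow, with log2 ratios of -0.30, -0.10, -0.18, -0.44 and 0.04 for Dusp1 and of 0.29, -0.12, -0.12, -0.38 and 0.38 for Per1. The list medians were 0.39, 0.39, 0.53, 0.46 and 0.22, against 0.02, -0.01, 0.06, -0.07 and 0.12 at 12 weeks. The 2 shared genes did not follow these 12-week medians in every gate. Tsc22d3 was higher in all 5 gates at 12 weeks, with log2 ratios of 0.43, 0.46, 0.37, 0.68 and 0.64. Fkbp5 had 12-week log2 ratios of 1.25, 1.01, 0.02, -0.05 and 0.84, near 0 in T cells and ILC2 only. Of the 20 genes on the glucocorticoid list 13, 15, 15, 15 and 13 were measured. Of these 3, 6, 7, 4 and 3 were past 1.5-fold higher, against 7.78%, 11.3%, 9.82%, 8.71% and 10.4% of all genes. Past 1.5-fold lower were 0, 0, 0, 1 and 0, against 7.09%, 5.25%, 8.96%, 13.8% and 12.4%.

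**Figure D2:**
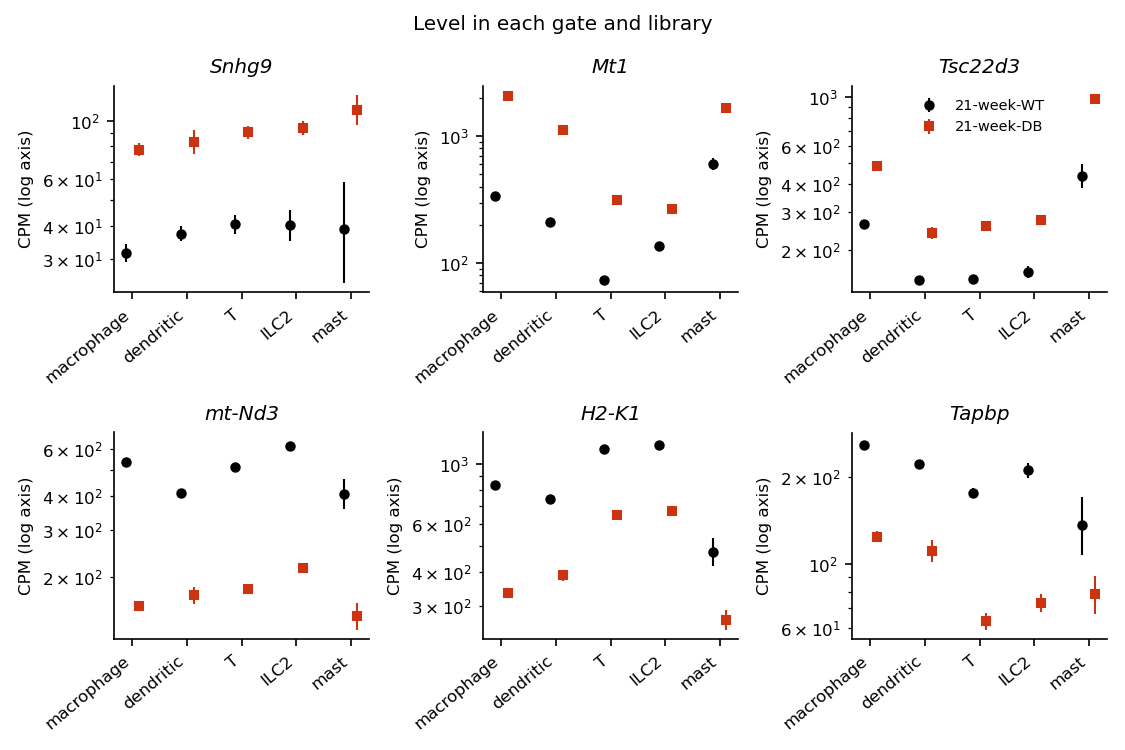
Level (CPM, log axes) of 6 genes in each gate in 21-week-WT (black circles) and 21-week-DB (red squares), with bars for the exact 95% Poisson interval of the count. In every gate the DB point of Snhg9, Mt1 and Tsc22d3 lies above the WT point and that of mt-Nd3, H2-K1 and Tapbp below it, and the WT mast points have the widest bars.

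Lipid storage gave 1 shared gene. Plin2, which coats lipid droplets, was at 102, 81.7, 30.3, 23.5 and 35.3 CPM in WT and at 249.7, 145, 52.8, 68.1 and 65.2 CPM in DB (log2 ratios 1.28, 0.82, 0.80, 1.54 and 0.89). Hilpda, an inhibitor of lipid breakdown on the droplet, was higher in all gates as well, but unevenly, with log2 ratios of 0.97, 1.26, 1.68, 1.93 and 0.28 that passed 2-fold in dendritic cells, T cells and ILC2 only. Both genes were highest in fold in ILC2. Cd36, a fatty acid transporter, had log2 ratios of 0.22 in macrophages and 2.36 in dendritic cells, whose summed macrophage markers were also higher in DB. Of 18 listed genes 10, 9, 6, 6 and 7 were measured, of which 4, 7, 3, 3 and 2 were past 1.5-fold higher, against 7.78%, 11.3%, 9.82%, 8.71% and 10.4% of all genes, and 2, 0, 1, 1 and 1 lower.

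The lymphoid gene Il7r, the receptor chain for interleukin-7, was past 1.5-fold higher in all 5 gates, with the largest ratio in mast cells. It was at 65.3 CPM in WT against 392 CPM in DB in mast cells, at 452 CPM in WT against 776 CPM in DB in ILC2 and at 400.3 CPM in WT against 817 CPM in DB in T cells. Ctla2a, a protease inhibitor, was most abundant in ILC2, at 2136 CPM in WT and 3904 CPM in DB, and its macrophage level was 42.2 and 133 CPM. Both are markers of ILC2, whose share of kept cells was 9.31% in WT and 18.4% in DB. With a library-wide ambient profile subtracted, the log2 ratios of Il7r were 0.89, 1.90, 0.97, 0.73 and 3.28. Those of Ctla2a were 3.14 in macrophages, 0.94 in T cells, 0.82 in ILC2 and 1.31 in mast cells, and in dendritic cells no WT count of Ctla2a was left.

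The remaining shared higher genes had mixed functions. Hist1h2bc, a histone H2B gene whose reads may be shared with near-identical copies, was at 87.1, 78.2, 49.6, 72.6 and 54.7 CPM in WT and at 159.7, 158, 196, 316 and 139.7 CPM in DB, with log2 ratios of 0.87, 1.02, 1.99, 2.12 and 1.35. Gm12840, a non-coding RNA, had log2 ratios of 1.19, 0.93, 1.37, 2.23 and 1.12, and Dnaja1, a co-chaperone of Hsp70, of 0.71, 0.80, 1.0, 1.17 and 0.69. Hist1h2bc, Gm12840 and Dnaja1 had their largest ratios in ILC2. Msl3, a chromatin reader, Tceal9, Vps37b, Sra1 and Dynll1, a dynein light chain, complete the 18, with median log2 ratios from 0.74 to 1.13 over these 5. Past 2-fold in 4 lineages and measured in only those 4 were Fxyd2, a regulator of the sodium pump, with log2 ratios of 1.83, 3.05, 2.19, 1.10 and 1.58, and Crem, a cyclic AMP-responsive transcription factor, with 1.20, 1.05, 1.27, 1.15 and 1.01. The fifth value (ILC2 for Fxyd2, macrophages for Crem) is of a gene under 50 CPM. Fxyd2 was a macrophage gene by level, at 1066 CPM in WT against 3779 CPM in DB, against 79.98 CPM in DB T cells and 127 CPM in DB mast cells.

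Mitochondrially encoded transcripts were the largest functional group among the shared lower genes. They encode subunits of the respiratory chain and are read from the mitochondrion's own circular genome. Mitochondrial genes made up 4.03% of WT and 2.33% of DB macrophage UMIs, and 3.54% and 2.50% of dendritic UMIs. The shares were 4.29% and 2.54% in T cells, 5.16% and 3.10% in ILC2, and 2.94% and 1.51% in mast cells. mt-Nd3, a subunit of complex I, was at 537, 412, 511, 615 and 408 CPM in WT and at 156, 171, 180.2, 217 and 143 CPM in DB, with log2 ratios of -1.79, -1.27, -1.50, -1.51 and -1.51. mt-Cytb, of complex III, had log2 ratios of -1.19, -0.97, -1.08, -1.03 and -1.36, and mt-Nd2 of -1.19, -0.94, -0.97, -1.04 and -1.46. Of 13 genes on the list 12 were measured in all gates. Of these 11 were lower in all 5, against 22.7% of all genes, and 6 were past 1.5-fold in all 5 (mt-Nd3, mt-Cytb, mt-Nd2, mt-Nd1, mt-Co3 and mt-Nd4). mt-Atp8 was the exception, higher in all 5 with log2 ratios of 0.03, 0.27, 0.19, 0.38 and 0.14, so the 12 transcripts did not move as a block. The gate medians were -0.83, -0.66, -0.73, -0.75 and -1.04, whereas the 17 to 19 measured nuclear-encoded subunits of the respiratory chain had gate medians from -0.01 to 0.11 and none past 1.5-fold in all 5. Cells above 10% mitochondrial UMIs were removed by rule. With a limit of 5% the median log2 ratio of mt-Nd3 was -1.15 in place of -1.51, and that of mt-Cytb -0.87 in place of -1.08.

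The most abundant shared lower gene was Gm42418, which took 7.61%, 7.23%, 8.96%, 9.27% and 1.32% of WT UMIs and 1.86%, 2.09%, 2.43%, 2.28% and 0.813% of DB UMIs. This locus (GRCm38 chr17:39846958-39848788, plus strand) lies over ribosomal RNA sequence, and AY036118, on the opposite strand inside it (chr17:39847113-39848035, minus strand), was not lower: its log2 ratios were 0.30, 0.07, 0.85, 0.77 and 0.79, against -2.03, -1.79, -1.88, -2.02 and -0.70 for Gm42418. Lars2, the mitochondrial leucyl-tRNA synthetase, had log2 ratios of -1.58, -1.31, -1.86, -1.96 and -0.81, and Gm15564, measured in 4 gates, of -3.68, -2.78, -4.71, -4.12 and -2.52. Gm42418, Lars2 and Gm15564 were lower in DB, and by the least in mast cells. Whether the Lars2 counts came from mRNA of the synthetase was not tested. With the ambient profile subtracted, Lars2 and Gm42418 were no longer lower in mast cells, where 16.5 WT counts of Lars2 and none of Gm42418 were left. Because these genes and the mitochondrial ones fill so much of a WT library, scaling without them moved all other log2 ratios by -0.12, -0.10, -0.14, -0.15 and -0.03. On that scale 13 genes were higher and 36 lower past 1.5-fold in all 5, in place of 18 and 23.

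Of 8 genes of MHC class I, which shows peptides from inside the cell to T cells, that were measured in all gates, 2 were past 1.5-fold lower in all 5, H2-K1 and Tapbp, against 1.16% of all genes. H2-K1, a class I heavy chain (GRCm38 chr17:33996017-34000347, minus strand), was at 834, 741, 1135, 1178 and 475 CPM in WT and at 335, 389, 646, 668 and 266 CPM in DB, with log2 ratios of -1.32, -0.93, -0.81, -0.82 and -0.84. Tapbp (tapasin, chr17:33915899-33929292, plus strand), which holds empty class I molecules at the peptide transporter, was at 258, 222, 176, 211 and 136 CPM in WT and at 124, 111, 63.2, 72.9 and 78.2 CPM in DB, with log2 ratios of -1.05, -1.01, -1.47, -1.53 and -0.80. H2-K1 was lowest against WT in macrophages, and Tapbp in T cells and ILC2. Psmb9, a subunit of the immunoproteasome that cuts the peptides, was past 2-fold lower in the 4 gates where it was measured (-1.02, -1.35, -1.09 and -1.10 in macrophages, dendritic cells, T cells and ILC2). Tap1, one chain of the peptide transporter, was past it in the 3 gates where it was measured (-1.55, -1.36 and -1.27 in dendritic cells, T cells and ILC2). H2-D1 differed less than H2-K1 and Tapbp in each gate, with log2 ratios of -0.49, -0.46, -0.07, 0.08 and -0.56. B2m, the light chain of every class I molecule, had -1.04, -0.56, -0.43, -0.36 and -0.16. Its macrophage ratio was near that of Tapbp, and its other ratios were smaller in size. In any size 5 of the 8 were lower in all 5, against 22.7% of all genes, and the list medians were -0.61, -0.72, -0.54, -0.42 and -0.44. Class I heavy chains are near-identical copies, so reads may be divided between them. With ambient RNA subtracted the mast value of H2-K1 was -0.57, no longer past 1.5-fold, and that of Tapbp -0.59. In the same gate H2-D1 was then at 0.03, H2-T22 at 0.18, Psmb9 at 0.30 and Psmb8 at 0.54, in place of -0.56, -0.19, -0.78 and -0.32. No WT count of Psmb9 was left there, so its value rests on a floor of 3 counts. H2-T22 and Psmb8 had 7.10 and 12.2 WT counts left. Other members stayed lower in mast cells on similarly few WT counts, among them Tap1 (-0.94), Psmb10 (-0.94) and H2-Q6 (-2.34). H2-K1 kept -1.33, -0.87, -0.82 and -0.83 in the other 4 gates.

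MHC class II, which presents peptides from outside the cell, was lower in all gates but not alike. Cd74, its invariant chain, was at 7590.4, 21602, 3405, 1787 and 1497 CPM in WT and at 2032, 18641, 434, 231 and 103 CPM in DB, with log2 ratios of -1.90, -0.21, -2.97, -2.95 and -3.86. The 5 to 7 class II genes measured in a gate had medians of -1.91, -0.21, -3.04, -2.99 and -3.61. The dendritic difference was small, in cells gated for 10 or more H2-Aa UMIs, and the T, ILC2 and mast differences were the largest, although these cells make little class II. Dendritic cells were 23.6% of kept WT cells and 4.08% of kept DB cells, and the share of counts that read as ambient was 15.5%, 9.76% and 19.0% in the WT T, ILC2 and mast gates and 12.5%, 7.61% and 5.42% in DB. H2-Ab1, a class II beta chain, had log2 ratios of -1.92, -0.49, -3.04, -2.99 and -3.61, and of -1.85, -0.60, -3.77, -3.62 and -1.74 after the ambient profile was subtracted. No count of Cd74 or H2-DMb2 was left in mast cells of either library after it. Plbd1, Fn1 and Marcks, all abundant in myeloid cells, were past 2-fold lower in 4 gates too, with T cell log2 ratios of -3.62, -1.59 and -2.47. So was Ighm, the heavy chain of IgM in B cells, beside a summed level of 5 B cell markers of 337 CPM in WT and 30.5 CPM in DB mast cells. Cells in more than 1 gate made up 7.45% of the WT T gate, 4.87% of the ILC2 gate and 9.21% of the mast gate. In DB these shares were 1.86%, 1.12% and 2.85%. The parts of free RNA and of such overlapping cells in the class II and these other differences were not tested gene by gene.

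Among the other shared lower genes, Tppp3, a tubulin-binding protein, had log2 ratios of -1.30, -0.89, -2.75, -2.61 and -2.03, on WT levels between 729.7 CPM in macrophages and 52.96 CPM in mast cells. Its mast ratio was -1.09 with cells in 1 gate only, and with ambient RNA subtracted no WT count of Tppp3 was left there, so its difference in all 5 gates was not kept. Ckb, the brain-type creatine kinase, which buffers ATP, was at 198, 297, 134, 51.00 and 51.2 CPM in WT and at 73.7, 144, 70.99, 18.2 and 19.9 CPM in DB, and its mast ratio of -1.36 became 0.05 with ambient RNA subtracted. Myadm, a membrane protein of myeloid and other cells, had log2 ratios of -1.03, -0.65, -1.48, -1.12 and -1.27. Tpm3-rs7, a tropomyosin-related sequence whose reads may belong to Tpm3, had -0.68, -0.77, -0.76, -0.74 and -0.72. Sept9 (a septin) had log2 ratios of -1.09, -0.67, -1.41, -1.38 and -0.59, Dock2, which activates Rac in migrating leukocytes, of -0.92, -0.62, -0.62, -0.61 and -0.90, and Dpysl2, a microtubule regulator, of -1.08, -0.62, -0.72, -0.61 and -0.77. Lgals1, the secreted lectin galectin-1, had -0.64, -0.69, -0.91, -0.64 and -0.81, and Gm2a, a lysosomal activator of ganglioside breakdown, -0.80, -0.92, -0.81, -0.87 and -0.98. Erp29, Dazap2, Syngr2 and Vrk1 complete the 23, with median log2 ratios from -0.97 to -0.75. With cells in 1 gate only, Erp29 was at -0.29 in T cells and -0.18 in mast cells, and with ambient RNA subtracted at 0.27 in mast cells.

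Genes that differed in 1 lineage only (past 2-fold there, and under 0.5 on the log2 scale in each of the other 4) numbered 16, 0.805% of the 1987, and 14 of them were mast cell differences. Most of the 16 were not kept as such with the mean over cells or with at least 100 CPM. Some were not kept with ambient RNA subtracted. Hexokinase 2 (Hk2), which traps glucose in the cell, was at 79.4 CPM in WT against 19.4 CPM in DB in mast cells, a log2 ratio of -2.03 (-2.67 to -1.39), while the other gates lay between -0.30 and 0.04. Cyld, a deubiquitinase that restrains NF-kB, and Ikbkb, the kinase that activates it, were both lower in mast cells only, at -1.29 and -1.20. Shisa5 (-1.24), Osbpl9 (-1.03), Ier5 (-1.0) and the chromatin remodelling subunit Smarce1 (-1.0) were the other mast-only lower genes. Ier5 and Smarce1 lay at the 2-fold limit. Shisa5 and Ier5 reached 0.48 and 0.47 in size in another gate, close to the limit of 0.5.

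The mast-only higher genes were led by Zfp36l2, an mRNA decay factor, at 697 CPM in WT against 1597 CPM in DB, with a mast log2 ratio of 1.20 (1.05 to 1.35) and ratios from -0.26 to 0.25 elsewhere. Zfp36l2 was abundant in all gates, so its even levels elsewhere are measured with narrow intervals. Ythdc1, a nuclear reader of methylated RNA, had a mast log2 ratio of 1.20. The other values were 1.17 for the peroxidase Prdx6, 1.15 for Uhrf2, 1.09 for the histone demethylase Kdm1a, 1.03 for Sdhb, a subunit of complex II, and 1.01 for Pin4. The mast gate has the fewest UMIs in WT, and in each of these 14 genes its counting interval was the widest of the 5 gates, so that the number of lineage-only genes cannot be compared between gates.

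The other lineage-only genes were Tnfrsf1b, the second receptor of tumour necrosis factor, higher in dendritic cells (98.01 CPM in WT against 221 CPM in DB, log2 ratio 1.18), and Egr1, an immediate early factor, lower in ILC2 (150.4 CPM in WT against 74.5 CPM in DB, log2 ratio -1.01). No gene met the limit in macrophages or T cells only.

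**Figure D3:**
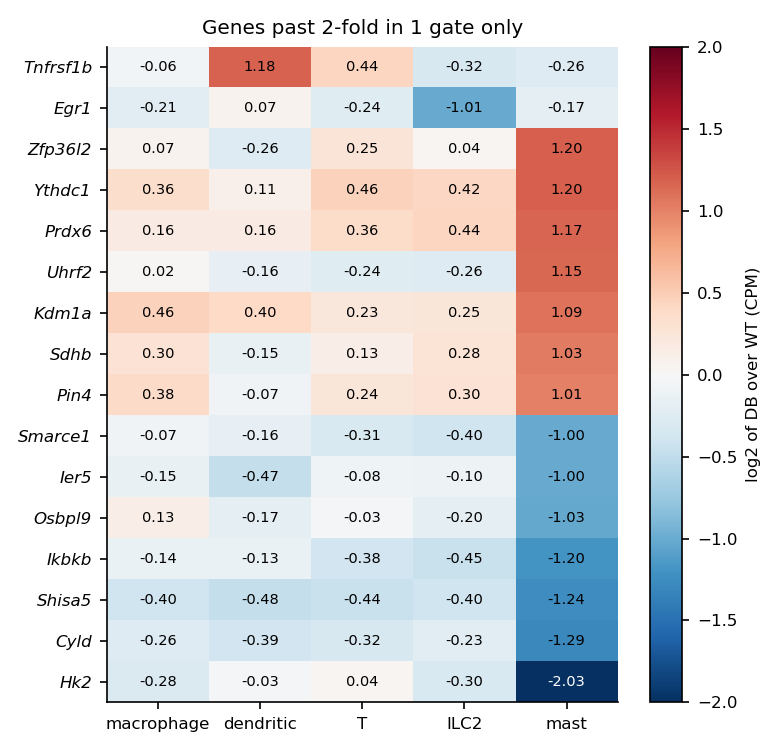
Log2 ratio of DB over WT (CPM) for the 16 genes past 2-fold in 1 gate and under 0.5 in size in the other 4, with rows as genes and columns as gates, and red for higher and blue for lower in DB. The deep colours stand in the mast column for 14 genes, in the dendritic column for Tnfrsf1b and in the ILC2 column for Egr1.

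Genes measured in a single lineage were below the minimum elsewhere and are given apart. A gene could be measured through the library where it was higher alone, which favours large ratios, so these counts are a description. Of 471 in mast cells 45 were past 2-fold higher (9.55%, against 3.66% of all genes measured there) and 15 lower (3.18%, against 3.72%). The numbers were 11 and 10 of 299 in macrophages (3.68% and 3.34%, against 1.83% and 2.28%), and 8 and 9 of 153 in T cells (5.23% and 5.88%, against 2.32% and 2.6%). They were 14 and 11 of 103 in dendritic cells (13.6% and 10.7%, against 4.03% and 1.48%) and 6 and 10 of 90 in ILC2 (6.67% and 11.1%, against 2.04% and 3.57%). In mast cells Fst, the activin-binding protein follistatin, was at 3.53 CPM in WT against 61.5 CPM in DB, from 2 and 133 UMIs (log2 ratio 4.12, interval 2.24 to 7.18). Vegfc, a growth factor of lymphatic vessels, was at 5.30 CPM in WT against 52.7 CPM in DB, from 3 and 114 UMIs (log2 ratio 3.32, interval 1.73 to 5.61). In ILC2 Calca, which encodes the neuropeptide CGRP, was at 27.4 CPM in WT against 251 CPM in DB (log2 ratio 3.20), whereas the keratins Krt5 and Krt14 were at 52.1 and 62.9 CPM in WT and 0.580 and 1.26 CPM in DB. The summed level of 7 keratinocyte markers was 345 CPM in the WT ILC2 gate and 69.4 CPM in the DB one, against 21.2 to 83.5 CPM in the other gates, and its part in the result was not tested.

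In macrophages Fabp4, a fatty acid carrier, was at 3.85 CPM in WT against 51.3 CPM in DB, Hpgd, which inactivates prostaglandins, at 28.4 CPM in WT against 122 CPM in DB, and Rnase2a, an eosinophil-type ribonuclease, at 105 CPM in WT against 3.15 CPM in DB. The dendritic gate held Mmp12, an elastase, at 77.1 CPM in WT against 354 CPM in DB, and Plac8, which marks monocyte-derived and plasmacytoid cells, at 118 CPM in WT against 11.2 CPM in DB. In T cells Pclaf, a replication factor, was at 55.95 CPM in WT against 2.52 CPM in DB, and Hist1h1b, a replication-dependent linker histone, at 51.3 CPM in WT against 5.90 CPM in DB. Both T cell genes are expressed in dividing cells. Of a list of 12 proliferation genes 5, 6, 8, 7 and 5 were measured over the 5 gates, with medians of 0.03, -0.43, -1.92, -1.07 and -0.01. Of these 0, 3, 6, 4 and 0 were past 1.5-fold lower, against 7.09%, 5.25%, 8.96%, 13.8% and 12.4% of all genes. Past 1.5-fold higher were 0, 1, 0, 0 and 1, against 7.78%, 11.3%, 9.82%, 8.71% and 10.4%. Mki67, the standard marker of cycling cells, was at 127 CPM in WT against 22.1 CPM in DB in T cells and at 79.7 CPM in WT against 17.4 CPM in DB in ILC2, but at 43.4 CPM in WT against 58.1 CPM in DB in macrophages.

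NF-kB response genes had medians of 0.36, 0.73, -0.01, -0.09 and -0.37, with 5, 11, 0, 1 and 1 of 15, 19, 16, 18 and 15 measured members past 1.5-fold higher and 1, 0, 1, 4 and 6 lower. Over all genes 7.78%, 11.3%, 9.82%, 8.71% and 10.4% were past it higher and 7.09%, 5.25%, 8.96%, 13.8% and 12.4% lower. Il1b, the cytokine interleukin-1 beta, was at 1312 CPM in WT against 3174 CPM in DB in dendritic cells, and its log2 ratios were 0.60, 1.27, -0.90, -1.47 and -2.32. Antioxidant genes had medians of 0.45, 0.60, 0.02, 0.06 and 0.26. Of 14, 15, 13, 12 and 14 measured members 6, 8, 0, 2 and 2 were past 1.5-fold higher, and 0, 0, 2, 2 and 0 lower, beside the same shares of all genes. Of the 11 measured in all gates 5 were higher in all 5 in any size, against 24.4% of all genes. Lower in all 5 was 1, against 22.7%, and 0 passed 1.5-fold in all 5 either way. Hmox1, which degrades haem, was at 172 CPM in WT against 821 CPM in DB in macrophages and 62.96 CPM in WT against 292 CPM in DB in dendritic cells. The summed level of 8 macrophage markers in the dendritic gate was 3321 CPM in WT and 6004 CPM in DB, and its part in the dendritic values of Il1b, Hmox1, Cd36 and Mmp12 was not tested. Sod1, which removes superoxide, was lower in all gates, with log2 ratios of -0.38, -0.46, -0.95, -0.96 and -0.25. Heat shock genes had medians of 0.16, 0.22, 0.36, 0.63 and -0.02, and the mitochondrial chaperonin Hspd1 was higher in all gates with log2 ratios of 0.56, 0.95, 1.14, 1.24 and 0.54. Immediate early genes, which respond to tissue digestion, had medians of -0.15, -0.07, -0.04, 0.07 and -0.15 and no member past 1.5-fold in all 5 either way. The plot of list medians by gate sets these lists side by side.

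**Figure D4:**
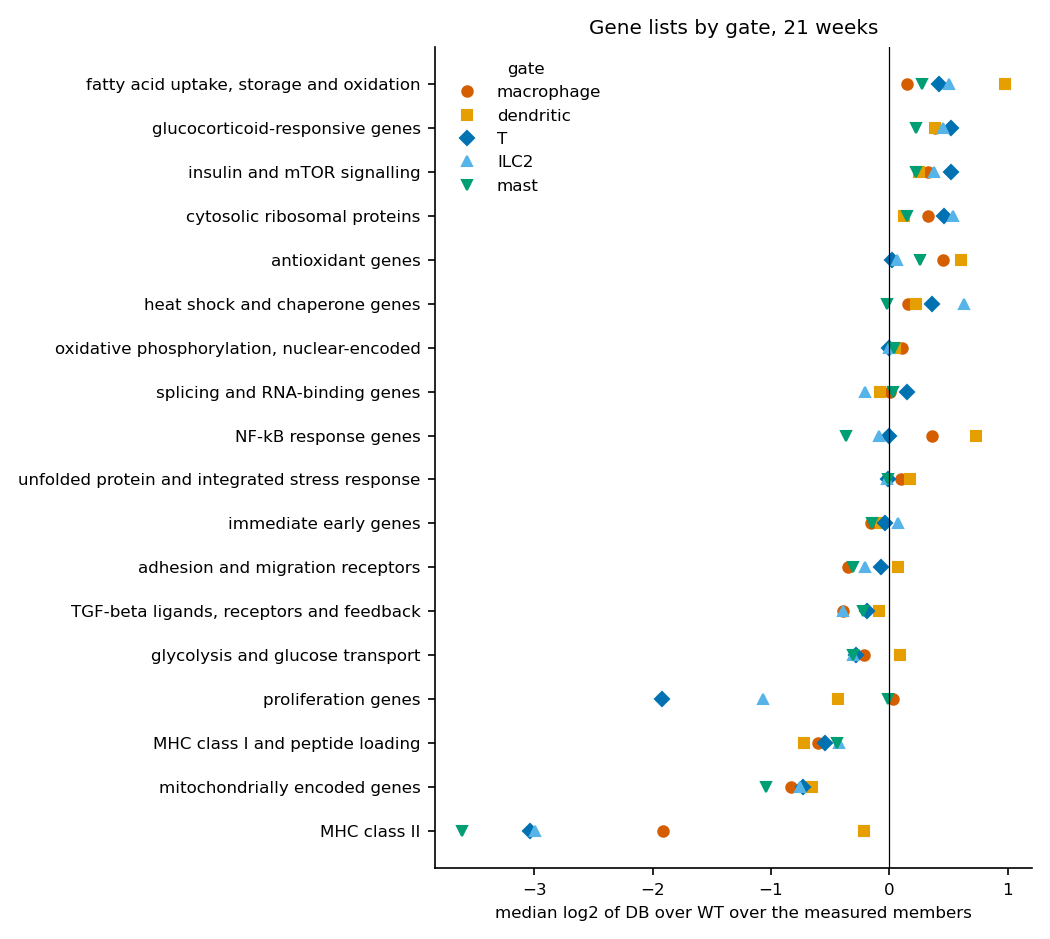
Median log2 ratio of DB over WT over the measured members of each gene list, 1 row a list, with 1 symbol for each gate, for lists with at least 5 measured members in every gate. The mitochondrially encoded, MHC class I, MHC class II and TGF-beta lists lie below 0 in all 5 gates. The glucocorticoid-responsive, ribosomal protein, insulin and mTOR signalling, antioxidant and fatty acid lists lie above 0 in all 5. The proliferation, NF-kB and MHC class II lists spread widely over the gates.

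At 12 weeks the same gates gave less that was shared. Of 2109 genes measured in all 5 lineages, 1 was higher past 2-fold in 12-week-DB and 0 were lower, and past 1.5-fold 1 was higher and 1 was lower. None of the 41 genes shared at 21 weeks passed 1.5-fold in all 5 lineages at 12 weeks. Of the 18 higher genes 6 were higher in all 5 lineages at 12 weeks in any size and 1 was lower in all 5, and of the 23 lower genes 12 were lower in all 5 and 0 higher. The median of their median log2 ratios was 1.0 at 21 weeks and 0.24 at 12 weeks for the higher genes, and -0.97 and -0.29 for the lower ones. Mt1, with 12-week log2 ratios of 0.05, -0.18, 0.49, -0.74 and 0.24, had no common direction then, whereas Snhg9, with 0.47, 0.46, 0.28, 0.25 and 0.76, and mt-Nd3, with -0.98, -0.80, -0.77, -0.75 and -0.57, had the same direction at both ages. The genes were picked at 21 weeks, and values nearer 0 at 12 weeks are in part fixed by that choice. The 12-week files were made with Cell Ranger 5.0.0 and the 21-week files with 6.0.0, per the file headers, and each ratio stays within one age.

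**Figure D5:**
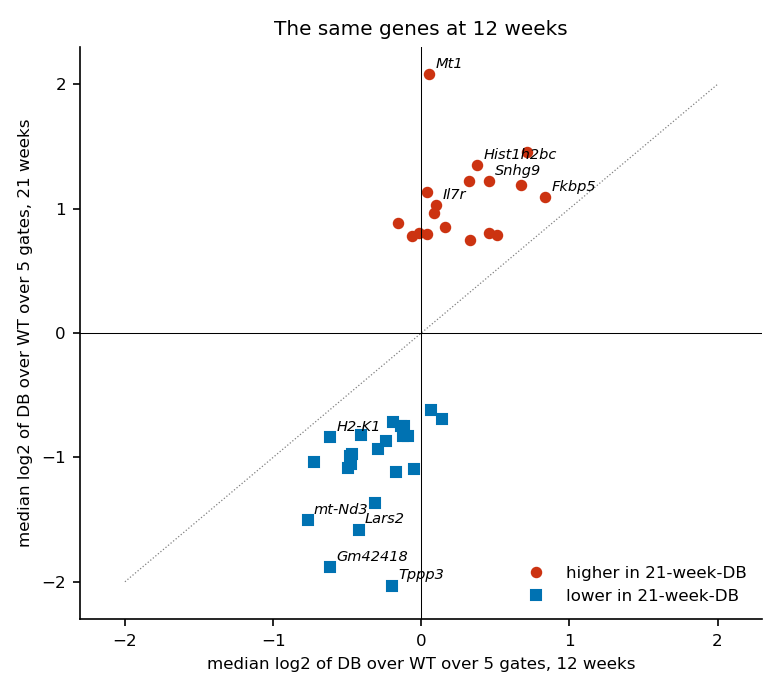
Median log2 ratio of DB over WT over the 5 gates at 12 weeks (x axis) and 21 weeks (y axis) for the 18 genes higher (red circles) and 23 genes lower (blue squares) past 1.5-fold in all 5 gates at 21 weeks, with the dotted line of equal values. All 41 points lie farther from 0 on the 21-week axis than on the 12-week axis.

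Because the libraries differ by genotype at Lepr, the genes around it on chromosome 4 were listed. Within 5 Mb, 7 genes were measured in at least 3 lineages and 0 of them were past 2-fold one way in 3 or more, beside 65 of 3021 genes (2.15%) overall. Leprot, which lies next to Lepr, had log2 ratios of -0.19, -0.06, -0.40, -0.42 and -0.15, and Mier1 0.42, 0.58, 0.53, 0.23 and 0.56.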

How the data were processed

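CD45+ hindpaw leukocytes were profiled with 10x Chromium 3′ v3 chemistry. The deposited values are raw UMI counts per gene and barcode, made by the authors with Cell Ranger against mm10. The file headers give version 6.0.0 for 21 weeks and 5.0.0 for 12 weeks, and the submitters' processing notes name 5.0.0. The matrices hold 32285 genes, of which 32158 matched the GENCODE M21 annotation. The authors' later steps in Seurat, decontX and DoubletFinder are not in these matrices, so free RNA and doublets remain in the main values. Removing doublets by simulated-doublet score at 0.8% per 1000 barcodes, and subtracting ambient RNA, were alternatives.

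Counts were summed by gate and scaled to CPM with Python 3.11.15, numpy 2.4.6, scipy 1.17.1, pandas 2.3.3 and scanpy 1.11.5, and plotted with matplotlib 3.10.9. Levels carry exact Poisson intervals and ratios exact conditional intervals, at 95%, and PCR and sampling of animals are outside them. A ratio against 0 used a floor of 3 counts. The ambient share was set by mast proteases outside the mast gate and by C1q genes in it. Named genes were those past 2-fold alike (at most 12 a direction with a level in every lineage of at least 10% of the highest, and 6 others), the 4 largest per direction in 1 lineage only, the 6 widest opposite differences, members of the gene lists, genes within 5 Mb of Lepr, and the 2 largest per direction measured in 1 lineage alone. The 1.5-fold limit and the genes it adds, AY036118, and the mast-only genes beyond 4 per direction were chosen after values were seen. The members and lists were chosen with earlier results of these data known. The scripts were tested on simulated data.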

Additional observations from a re-analysis of the deposited data

Results flagged for a closer look

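Past 2-fold, 16 genes lay in opposite directions in different lineages, and the 6 with the widest span of log2 ratios are given here. The differences between lineages were not tested, since each group is 1 library. Slc7a2, an arginine transporter, spanned 6.27, with log2 ratios of 2.36 in dendritic cells, -1.69 in macrophages and -3.91 in mast cells. Lgals7, an epithelial galectin, spanned 6.01, at 8.83 CPM in WT against 62.5 CPM in DB in mast cells and 63.3 CPM in WT against 6.96 CPM in DB in ILC2. It is 1 of 7 keratinocyte markers, whose summed level was 21.2 CPM in WT and 73.6 CPM in DB in mast cells and 345 CPM and 69.4 CPM in ILC2, and their part was not tested. Ptgs2, the inducible prostaglandin synthase, spanned 5.66, at 220.5 CPM in WT against 644 CPM in DB in dendritic cells and 98.7 CPM in WT against 5.71 CPM in DB in ILC2. Cxcl1, a neutrophil-attracting chemokine, spanned 5.57, higher in dendritic cells (2.79), T cells (1.33) and ILC2 (2.36) and lower in mast cells (-2.79). Mucl1 spanned 4.79, with 3.66 in dendritic cells and -1.13 in macrophages. Stmn1, a microtubule-destabilising protein abundant in dividing cells, spanned 4.23, higher in mast cells (1.74) and lower in dendritic cells (-2.0), T cells (-2.49) and ILC2 (-2.04).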

How the results depend on the processing

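No paired analysis was possible because each group is 1 library, and for the same reason no replicate could be left out. The alternatives changed counts of genes more than directions, which some of them could not change. Genes higher past 2-fold in all 5 lineages numbered 2 with at most 5% mitochondrial UMIs, 2 with centring on the median gene, 3 with the mean over cells, 0 with at least 100 CPM and 12 with no minimum, against 1. Genes lower numbered 2 with the mean over cells, 18 with no minimum and 5 when scaled without the mitochondrial genes, Gm42418, Lars2 and Gm15564, against 1. Genes past 2-fold in 1 lineage only numbered 26, 27, 5 and 274 with the mean over cells, ambient RNA subtracted, at least 100 CPM and no minimum, against 16, of which 5, 10, 5 and 16 were shared. Past 1.5-fold in all 5, higher genes numbered 11, 9 and 58 with ambient RNA subtracted, at least 100 CPM and no minimum, against 18, and lower genes 13 with ambient RNA subtracted, 67 with no minimum and 36 on the other scale, against 23. At 100 CPM, which leaves fewer genes, those past 2-fold numbered 99 in the dendritic, 85 in the T, 88 in the ILC2 and 123 in the mast gate, against 164, 161, 176 and 246. With no minimum they numbered 1779, 1502, 2027, 1934 and 977 in the 5 gates. With genes held to at least 10% of their highest lineage they numbered 63, 65, 100, 104 and 144. The limits on CPM and on the level across lineages do not enter a ratio, so they could not change a direction. Scaling without the mitochondrial genes, Gm42418, Lars2 and Gm15564 moved other ratios by at most 0.15 in size, and centring by less. The smallest ratio of the named shared genes was 0.62 (Vps37b). Of 27 named genes 23 kept their direction in every gate under all 12 alternatives, these included. The exceptions were mast values with ambient RNA subtracted, 0.05 for Ckb, 0.27 for Erp29, 2.71 for Lars2, and Gm42418, whose WT count there was subtracted to 0 (at least 10.13 on the log2 scale against a floor of 3 counts). Tppp3 is counted among the 23, but its mast ratio of -0.24 with ambient RNA subtracted rests on the floor of 3 counts. There 0 WT counts and 11.4 DB counts of Tppp3 were left, so its mast direction was not kept by the counts themselves. The 566504 UMIs of WT mast cells limit that gate most.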
